A study of Danio rerio with 8 samples.

Results

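The genes described here encode the receptor chains through which interleukin-4 (IL4) and interleukin-13 (IL13) act, the kinases bound to them, the transcription factor stat6 and the feedback inhibitors of the SOCS family. The members were 10 named zebrafish genes, matched by gene name in a deposited table of 31388 genes: il4r.1, il13ra1, il13ra2, il2rga, il2rgb, jak1, jak3, stat6, socs1a and socs3b. The table's symbols lacked paralogue letters for socs1a and socs3b, and SOCS3 was carried by 2 genes. The gene on chromosome 12 shared 24 of 30 named neighbours with socs3b of the RefSeq annotation (assembly GRCz12tu) and the one on chromosome 3 shared 4, so the former was taken as socs3b. The other, which shared 22 of 30 neighbours with socs3a, is given beside it and makes 11 genes found by the rule.

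Brains of adult zebrafish, 6 months old and carrying the Tg(her4.1:EGFP) reporter, received an injection of either phosphate-buffered saline (PBS), the control, or IL4 peptide. After 24 hours the brains were dissociated and cells were sorted by flow cytometry into a GFP-positive and a GFP-negative fraction, and RNA was sequenced. Each injection thus gave a GFP-positive and a GFP-negative group, and each of these 4 groups holds 2 libraries. All 4 came from fish of the same reporter line, in which the her4.1 promoter, active in radial glia, drives EGFP. The GFP-negative fraction pools the cells sorted as without GFP, whatever their type. The series' design text names other injections (CPP and AB42), 48 hours and 3 replicates, and the sample labels were followed, whose descriptions are the column names of the table. Whether a replicate is its own fish, or a pool, is not stated in the labels. The p-values therefore measure only the spread between these libraries, which may be technical. The title of the series names IL4 as an inducer of plasticity in neural stem cells, and the IL4 receptor is the entry point for that peptide.

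IL4 binds the IL4 receptor alpha chain, which pairs with the common gamma chain (the type I receptor, typical of blood-derived cells) or with IL13 receptor alpha 1 (the type II receptor, typical of other tissues). In mammals the alpha chain and IL13 receptor alpha 1 carry JAK1 and JAK2 or TYK2, and the common gamma chain carries JAK3. These kinases phosphorylate STAT6, which enters the nucleus. IL13 receptor alpha 2 binds IL13 with a short tail and is best known as a decoy, and SOCS proteins bind the activated kinases or receptors and dampen the signal.

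Total counts ran from 19242851 to 26582271 per library. A level is given as CPM, read counts relative to a library size scaled by TMM (the trimmed mean of M values), and a difference as log2 fold change ± standard error (SE) with 2 libraries against 2. Tests are edgeR's quasi-likelihood test on all 20508 genes that passed the filter on low counts, with Benjamini-Hochberg adjustment over all of them, and 0.05 was the threshold on the adjusted p below which a gene is said to have passed. The 10 genes all passed the low-count filter. As a check of the sort, 14 of 15 radial glial markers were higher in GFP-positive cells after PBS, where 32.6% of all genes tested were higher. Their summed level was 50910 to 52000 CPM against 2748 to 2770 CPM. The same GFP-positive libraries also held markers of other cells, such as oligodendrocytes (summed to 2012 to 2086 CPM) and microglia and macrophages (1079 to 1088 CPM). Of the count table's genes, 0 overlapped any of the 11 genes on either strand, so their reads are not shared with an overlapping gene. The strand setting of the counter is not given in the sources used here.

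On GRCz10 the receptor genes lie at chr3:43301383-43359120 (il4r.1, minus strand, 24 exons), chr7:18901042-18916098 (il13ra1), chr5:36501224-36517625 (il13ra2), chr10:33600469-33613439 (il2rga) and chr14:30621944-30626970 (il2rgb). The kinase genes lie at chr6:31381157-31442247 (jak1) and chr8:13351410-13375412 (jak3), and stat6 at chr23:27152325-27196639. The feedback genes lie at chr3:26682187-26684082 (socs1a), chr12:34157076-34176402 (socs3b) and chr3:57352613-57355437 (socs3a). How reads that align to several places were counted is not given in the sources used here, so values of close paralogues (il2rga and il2rgb, socs3a and socs3b) could share reads.

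In GFP-positive cells after IL4, the type II receptor chain il13ra1, the kinase gene jak1, stat6 and the feedback gene socs3b rose, while jak3 and the decoy chain il13ra2 fell. The calls of stat6 and il13ra2 there are the weak ones, lost in most fits with 1 of the 8 libraries left out. That of il13ra1 was lost in some of these fits. The values in them ran from 0.33 to 0.62 for stat6, from -6.51 to -1.60 for il13ra2 and from 0.24 to 0.37 for il13ra1. In GFP-negative cells il4r.1, il13ra1, stat6 and socs3b fell. For il4r.1, il13ra1, jak1, stat6 and socs3b the IL4 change was more positive in GFP-positive than in GFP-negative cells, by a test of that difference. The levels in every library come first, by the role of the gene, and the plot of levels by library shows them together.

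**Figure D1:**
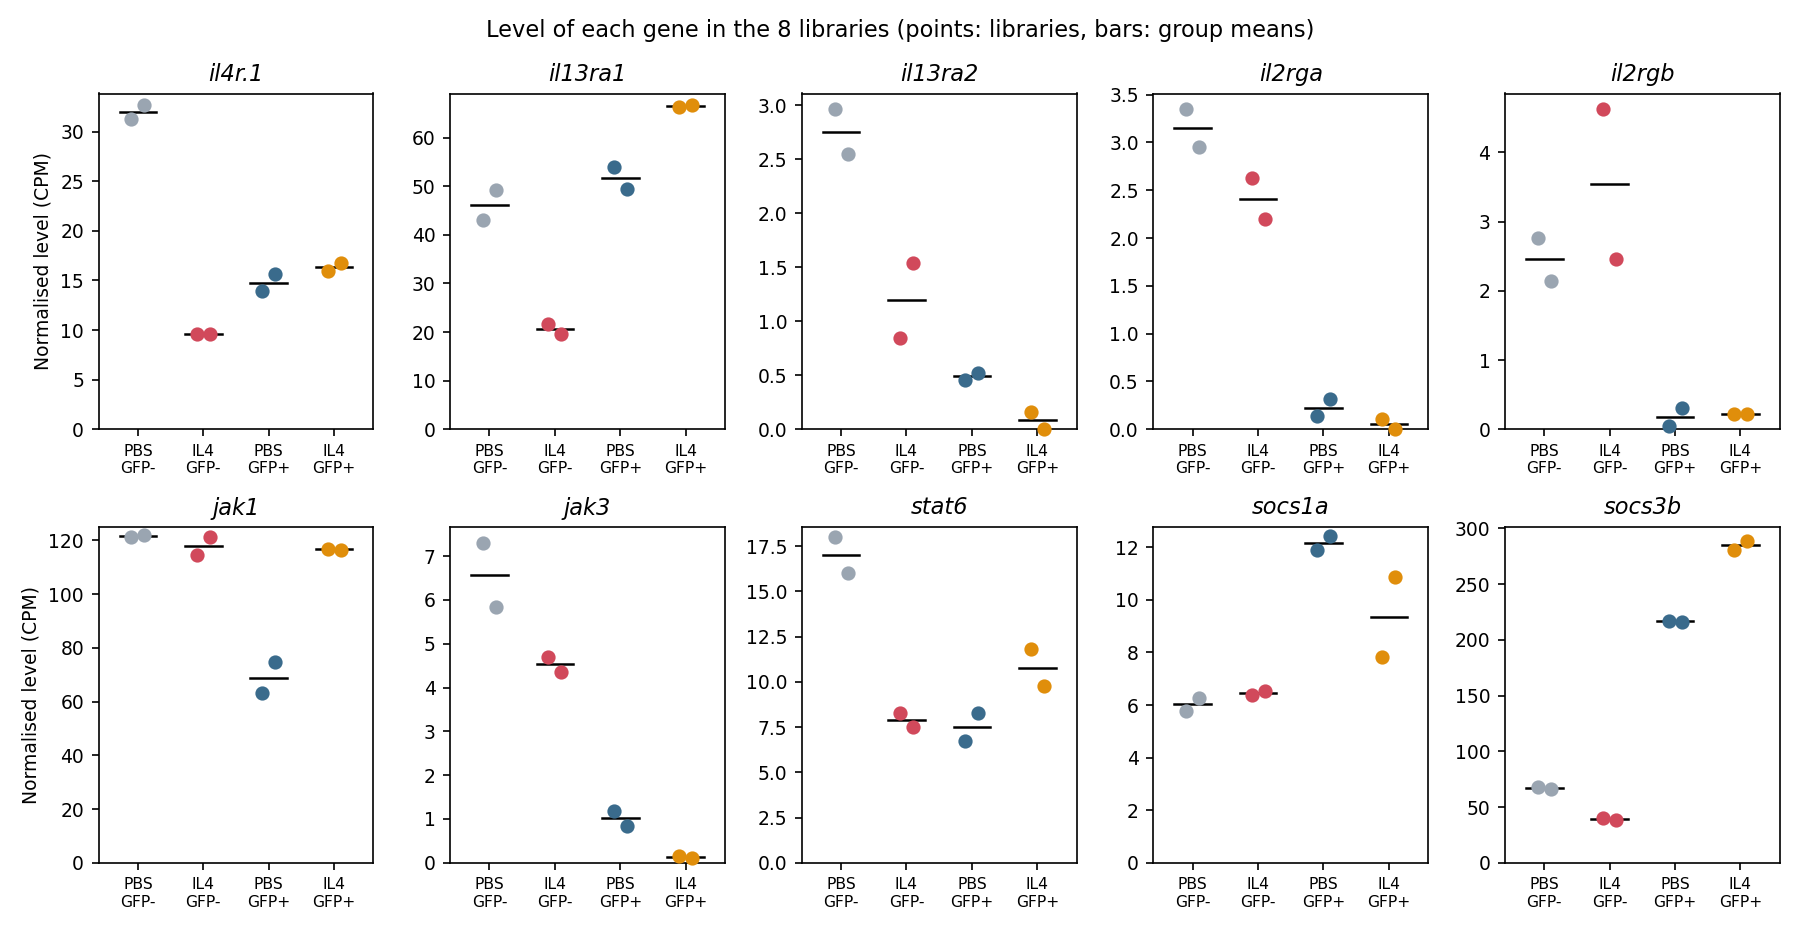
Normalised level in CPM (vertical axis, each panel with its own scale from 0) of the 10 genes in the 8 libraries, by group. Points are libraries and bars are means of 2; il4r.1 falls from 32.0 to 9.63 CPM in GFP-negative cells, and jak1 rises from 68.9 to 117 CPM in GFP-positive cells.

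The IL4 receptor alpha chain gene il4r.1 stood at 31.3 and 32.7 CPM in the PBS GFP-negative libraries and at 9.62 and 9.63 CPM in the IL4 GFP-negative libraries. In GFP-positive libraries it stood at 13.9 and 15.6 CPM after PBS and at 15.9 and 16.8 CPM after IL4. Its GFP-negative groups lie far apart, whereas the GFP-positive groups differ by little and do not overlap. In GFP-negative cells il4r.1 fell by 1.73 ± 0.14 on the log2 scale, a 3.32-fold lower level (adjusted p = 5.85e-09, edgeR). In GFP-positive cells the difference was 0.15 ± 0.14 (adjusted p = 0.466).

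The IL13 receptor chain gene il13ra1, the partner of il4r.1 in the type II receptor, stood at 43.1 and 49.2 CPM in PBS GFP-negative libraries and at 21.6 and 19.6 CPM in IL4 GFP-negative libraries. In GFP-positive libraries it stood at 54.0 and 49.5 CPM after PBS and at 66.4 and 66.7 CPM after IL4. The groups of each fraction do not overlap, and they move in opposite directions. It fell by 1.16 ± 0.10 in GFP-negative cells (adjusted p = 2.22e-08) and rose by 0.36 ± 0.09 in GFP-positive cells (adjusted p = 0.00631, edgeR). The rise did not pass with replicate 2 of PBS GFP-positive (0.24) or either replicate of IL4 GFP-positive (0.31 and 0.30) left out.

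The decoy chain gene il13ra2 was read at low depth. It had 77 and 63 counts in the PBS GFP-negative libraries and 20 and 35 in the IL4 GFP-negative ones. In GFP-positive libraries it had 10 and 10 counts after PBS and 3 and 0 after IL4. Within each fraction the IL4 libraries are the lower ones. The GFP-positive ratio was 5.92 from 20 against 3 counts over the group (95% counting interval 1.76 to 31.1), and the fitted fall passed (adjusted p = 0.0418, edgeR). That call held without IL4 GFP-negative replicate 1 and, at -6.51, without IL4 GFP-positive replicate 1. It ended when either PBS GFP-negative library (-2.49 each) was left out, or PBS GFP-positive replicate 1 (-2.64) or 2 (-2.45), or replicate 2 of IL4 GFP-negative (-2.49) or of IL4 GFP-positive (-1.60), with adjusted p of 0.0505 to 0.218. It ended also with replicate number blocked (adjusted p = 0.0535) and in a fit of the GFP-positive libraries alone (0.162). In GFP-negative cells the value was -1.21 ± 0.46 (adjusted p = 0.0656). It passed as lower with any of the 4 GFP-positive libraries left out (-1.19 each), with no low-count filter (adjusted p = 0.0426), in voom (adjusted p = 0.0192) and in a fit of the GFP-negative libraries alone (adjusted p = 0.00744).

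The common gamma chain has a pair of gene copies in zebrafish. The copy il2rga stood at 3.35 and 2.96 CPM in PBS GFP-negative libraries and at 2.63 and 2.20 CPM in IL4 GFP-negative libraries, where the groups lie close. The copy il2rgb stood at 2.77 and 2.15 CPM after PBS and at 4.62 and 2.46 CPM after IL4, and here the groups overlap. In GFP-positive libraries il2rga had 3 and 6 counts after PBS and 2 and 0 after IL4. There il2rgb had 1 and 6 counts after PBS and 4 and 4 after IL4. Neither copy passed the test of IL4 against PBS in either fraction (adjusted p of 0.191 and 0.816 in GFP-positive and 0.538 and 0.404 in GFP-negative cells, edgeR). For il2rga in GFP-positive cells the ratio of PBS to IL4 was 3.997 with a counting interval of 0.827 to 38.0, so a difference was not detectable at this depth.

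The kinase gene jak1 stood at 63.1 and 74.7 CPM in PBS GFP-positive libraries and at 116.8 and 116.4 CPM in IL4 GFP-positive libraries. In GFP-negative libraries it stood at 121.1 and 122.0 CPM after PBS and at 114.5 and 121.4 CPM after IL4. The PBS GFP-positive libraries alone are low, and the other 6 lie between 114.5 and 122.0 CPM. It rose by 0.76 ± 0.07 in GFP-positive cells, 1.70-fold (adjusted p = 1.88e-07, edgeR), and the value in GFP-negative cells was -0.04 ± 0.07 (adjusted p = 0.724).

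The kinase gene jak3, whose product serves the common gamma chain, had 190 and 144 counts in PBS GFP-negative and 111 and 99 in IL4 GFP-negative libraries. In GFP-positive libraries it had 26 and 16 counts after PBS and 3 and 2 after IL4. The IL4 libraries are the lower ones in both fractions. It fell by 2.84 ± 0.58 in GFP-positive cells (adjusted p = 0.00086, edgeR), a call that held with each library left out (-3.20 to -2.61). In GFP-negative cells the value was -0.54 ± 0.27 (adjusted p = 0.172).

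The transcription factor gene stat6 stood at 17.99 and 16.0 CPM in PBS GFP-negative libraries and at 8.27 and 7.52 CPM in IL4 GFP-negative libraries. In GFP-positive libraries it stood at 6.72 and 8.26 CPM after PBS and at 11.8 and 9.77 CPM after IL4. The groups of each fraction do not overlap. It fell by 1.11 ± 0.18 in GFP-negative cells, 2.15-fold (adjusted p = 7.39e-05, edgeR), with -1.19 to -1.02 when each library was left out. In GFP-positive cells it rose by 0.53 ± 0.19 (adjusted p = 0.0386). That rise kept its call without PBS GFP-positive replicate 2. It lost it when PBS GFP-positive replicate 1 (0.33) was left out, or IL4 GFP-positive replicate 1 (0.33) or 2 (0.60), or either replicate of PBS GFP-negative or of IL4 GFP-negative (0.53 each). It also lost it under RLE factors (adjusted p = 0.0619), in DESeq2 (adjusted p = 0.0924) and in a fit of the GFP-positive libraries alone (adjusted p = 0.0777).

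The feedback gene socs3b had the highest level of the 10 in GFP-positive cells, while in GFP-negative cells jak1 stood higher in CPM. It stood at 217.2 and 216.3 CPM in PBS GFP-positive libraries and at 280.9 and 288.8 CPM in IL4 GFP-positive libraries. In GFP-negative libraries it stood at 68.0 and 66.0 CPM after PBS and at 40.0 and 38.1 CPM after IL4. Replicates lie close and the 4 groups stand apart from each other. It rose by 0.39 ± 0.05 in GFP-positive cells, 1.31-fold (adjusted p = 1.43e-05), and fell by 0.78 ± 0.06 in GFP-negative cells, 1.72-fold (adjusted p = 5e-09, edgeR).

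Its paralogue socs3a stood at 27.2 and 28.1 CPM after PBS and at 20.3 and 21.6 CPM after IL4 in GFP-positive libraries, and at 4.61 and 4.66 CPM after PBS and 1.87 and 2.51 CPM after IL4 in GFP-negative libraries. It fell by 1.09 ± 0.20 in GFP-negative cells (adjusted p = 0.000447, edgeR). In GFP-positive cells its value of -0.40 ± 0.15 did not pass (adjusted p = 0.0513), although it did under RLE factors (-0.45), in DESeq2 (-0.45), in voom (-0.40) and in a fit of the GFP-positive libraries alone (-0.40). Per kilobase of exon, the ratio of socs3b to socs3a within a library, which is free of scaling, was 6.84 and 6.58 after PBS and 11.8 and 11.4 after IL4 in GFP-positive cells. In GFP-negative cells it was 12.6 and 12.1 after PBS and 18.3 and 13.0 after IL4. The ratio was thus higher after IL4 in both fractions.

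The other feedback gene, socs1a, stood at 11.9 and 12.4 CPM in PBS GFP-positive libraries and at 7.81 and 10.9 CPM in IL4 GFP-positive libraries. It stood at 5.77 and 6.28 CPM in PBS GFP-negative and 6.40 and 6.55 CPM in IL4 GFP-negative libraries. The IL4 GFP-positive replicates lie far apart. It passed in neither fraction, at -0.38 ± 0.20 in GFP-positive (adjusted p = 0.161) and 0.10 ± 0.20 in GFP-negative cells (adjusted p = 0.775, edgeR). Without IL4 GFP-positive replicate 2 the GFP-positive value passed (-0.70).

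**Figure D2:**
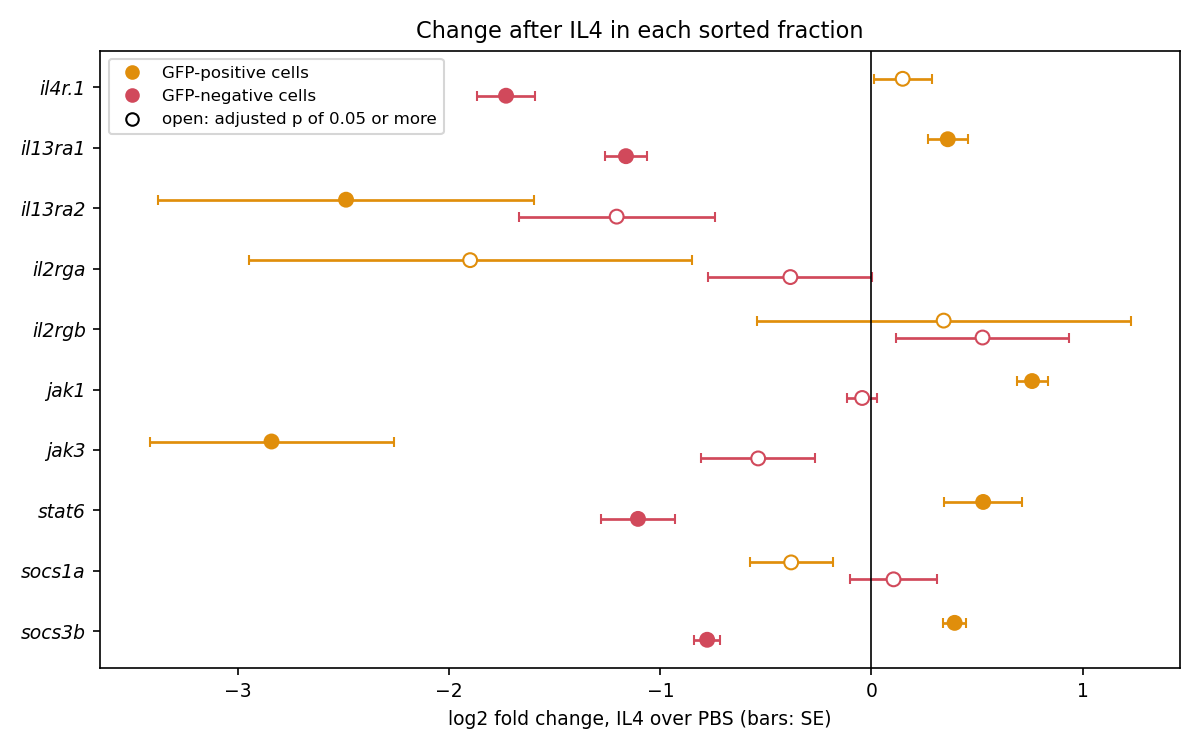
Log2 fold change of IL4 over PBS (horizontal axis, bars: SE, 2 libraries against 2) for the 10 genes in GFP-positive and GFP-negative cells; filled points passed at an adjusted p under 0.05. The filled GFP-negative points all lie below 0, from -1.73 for il4r.1 to -0.78 for socs3b, and the filled GFP-positive points lie on both sides.

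In GFP-positive cells 4 of the 10 genes rose and 2 fell, where 28.7% of all genes tested passed (13.9% higher and 14.8% lower). The median of the 10 was 0.25, against 0.01 for all genes. In GFP-negative cells 4 fell and 6 did not pass, where 24.5% of all genes passed (9.04% higher and 15.4% lower), and the median was -0.66 against -0.02. These genes were chosen with results of these data known, so the counts describe them and give no independent evidence. Without 1 library, 4 or 5 of the 10 passed in GFP-positive cells and 4 or 5 in GFP-negative cells. The calls lost in GFP-positive cells were those of stat6, il13ra2 and il13ra1, without the libraries named above, and the call gained in GFP-negative cells was that of il13ra2. Library totals in place of TMM would give 3476 higher and 2410 lower genes in GFP-positive cells, against 2847 and 3042 with TMM. RLE factors would move these counts the other way, to 2465 higher and 3583 lower.

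The IL4 change itself differed between the fractions for 6 of the 10 genes, against 18.7% of all genes tested. In GFP-positive cells the change was the more positive for 11.5% and the more negative for 7.26%. The difference was 1.88 ± 0.19 for il4r.1 (adjusted p = 8.01e-07), 1.52 ± 0.14 for il13ra1 (adjusted p = 1.33e-07) and 1.64 ± 0.26 for stat6 (adjusted p = 0.000121, edgeR). It was 0.80 ± 0.10 for jak1 (adjusted p = 1.08e-05) and 1.17 ± 0.08 for socs3b (adjusted p = 3.22e-09). For these 5 genes the call held in every fit without 1 library. For jak3 the difference was negative, -2.31 ± 0.66 (adjusted p = 0.0183), which no longer passed in voom (-2.14), or with replicate 2 of PBS GFP-negative (-2.15), replicate 1 of PBS GFP-positive (-2.09), replicate 1 of IL4 GFP-negative (-2.25) or replicate 2 of IL4 GFP-positive (-2.14) left out. The values of il13ra2 (-1.28 ± 1.03), il2rga (-1.52 ± 1.12), il2rgb (-0.18 ± 1.06) and socs1a (-0.48 ± 0.28) did not pass. RLE factors would give 1941 higher and 1850 lower genes in this test, against 2355 and 1488 with TMM. Library totals would move these counts the other way, to 2623 higher and 1244 lower.

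Without IL4, 7 of the 10 genes were lower in GFP-positive than in GFP-negative cells and 2 were higher, where 71.7% of all genes differed (32.6% higher and 39.1% lower). The largest differences were those of the common gamma chains, jak3 and il13ra2. Of these, il2rga, il2rgb and il13ra2 had at most 10 counts in each GFP-positive library. They passed the low-count filter through the GFP-negative libraries, where they are high. That filter favours a lower call in GFP-positive cells, so their calls after PBS and after IL4 only describe the values. After PBS, il2rga was lower in GFP-positive cells at a log2 difference of -3.80 ± 0.54 (13.9-fold), il2rgb at -3.79 ± 0.61, jak3 at -2.68 ± 0.32 and il13ra2 at -2.48 ± 0.53. Leaving out PBS GFP-positive replicate 1 gave -2.87 for il2rgb, and leaving out replicate 2 gave -5.51. Smaller differences in the same direction passed for stat6 (-1.19 ± 0.18), il4r.1 (-1.11 ± 0.13) and jak1 (-0.82 ± 0.07). Both feedback genes were higher in GFP-positive cells, socs3b by 1.69 ± 0.06 (3.23-fold, adjusted p = 6.16e-16) and socs1a by 1.01 ± 0.20 (2.02-fold, adjusted p = 0.000136, edgeR). The chain il13ra1 did not pass, at 0.17 ± 0.09 (adjusted p = 0.119), with values of 0.07 to 0.31 when each library was left out. It passed as higher with replicate 2 of PBS GFP-negative (0.27) or of PBS GFP-positive (0.31) or either replicate of IL4 GFP-positive (0.25 each) left out, and in a fit of the PBS libraries alone (0.25). Library totals turned it to -0.32, which passed as lower. The median of the 10 was -1.15, against -0.137 for all genes.

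After IL4, 5 of the 10 genes were higher in GFP-positive cells and 4 were lower, where 66.6% of all genes differed (32.4% higher and 34.3% lower). The order of the fractions was the opposite of that after PBS for il4r.1 and stat6. The gene il4r.1 was higher in GFP-positive cells by 0.77 ± 0.14 (1.70-fold, adjusted p = 8.09e-05), il13ra1 by 1.69 ± 0.10 (3.23-fold, adjusted p = 6.63e-12) and socs3b by 2.87 ± 0.06 (7.29-fold, adjusted p = 2.83e-19, edgeR). The size of the il4r.1 difference depended on the processing. It ran from 0.33 to 0.77 under the alternatives other than leaving out a library, and passed in each of them. For jak1 the value was -0.02 ± 0.07 (adjusted p = 0.856), and it passed as lower under library totals (-0.45). The gene jak3 was lower in GFP-positive cells, at -4.99 ± 0.47, and il2rgb at -3.98 ± 0.58. With 2 counts against 112, il2rga gave a GFP-negative over GFP-positive ratio of 44.01 (counting interval 11.9 to 368), and with 3 against 55 il13ra2 gave 14.4 (4.68 to 72.0). The median of the 10 was 0.217, against -0.0469 for all genes.

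Some of these calls lie near the threshold and change with the libraries kept or with the scaling. The higher stat6 level after IL4 (0.45 ± 0.18, adjusted p = 0.0366) no longer passed with replicate 1 of PBS GFP-negative (0.45), of IL4 GFP-negative (0.52) or of IL4 GFP-positive (0.32) left out, nor with replicate 2 of IL4 GFP-negative (0.38) left out. The same held under library totals (0.013), RLE factors (0.42), DESeq2 (0.42) and no low-count filter (0.44). That of socs1a (0.53 ± 0.20, adjusted p = 0.0274) did not pass with replicate 1 (0.51) or 2 (0.55) of IL4 GFP-negative or replicate 2 of IL4 GFP-positive (0.28) left out, in DESeq2 (0.50) and under library totals (0.09). The fitted values of il13ra2 (-3.76) and il2rga (-5.32) were -7.73 and -8.74 without IL4 GFP-positive replicate 1, and -2.81 and -4.39 without replicate 2. Scaling by library totals moved the all-gene median by -0.484 after PBS and -0.436 after IL4, with 4231 higher and 10753 lower genes after PBS (6691 and 8022 with TMM) and 4332 and 9833 after IL4 (6642 and 7024 with TMM). The comparisons of the fractions share their libraries with those of IL4 against PBS and are not independent of them.

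**Figure D3:**
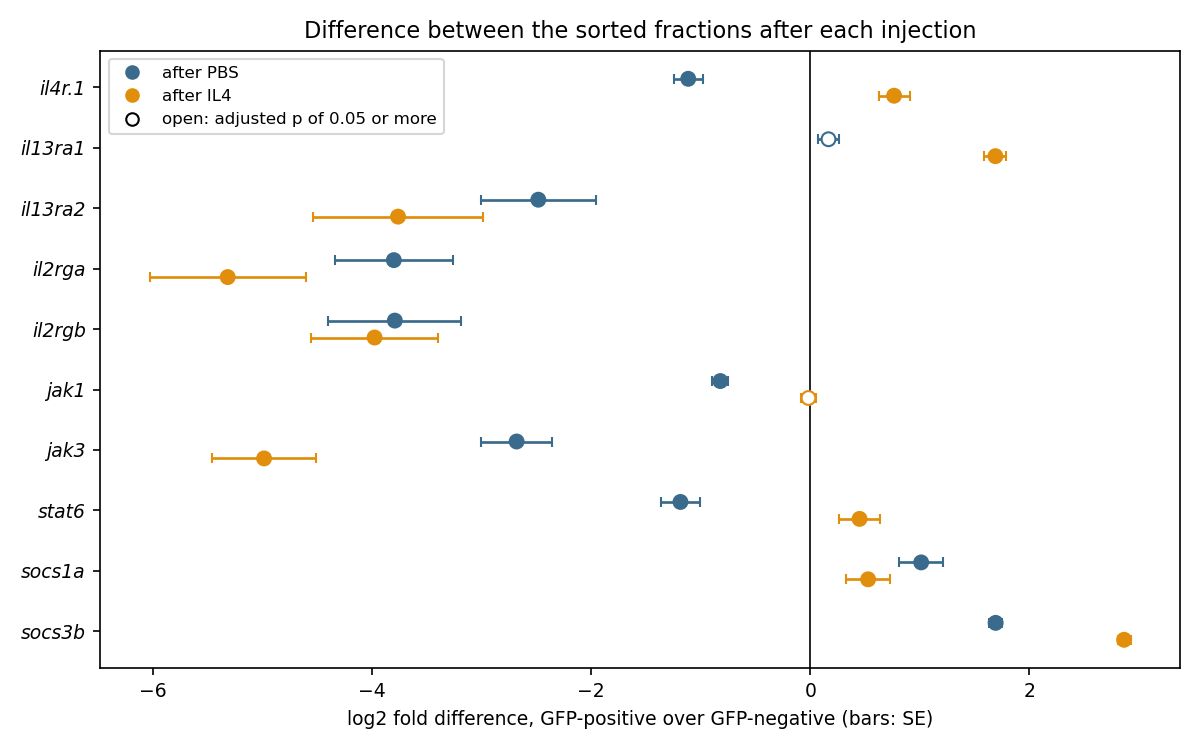
Log2 fold difference of GFP-positive over GFP-negative cells (horizontal axis, bars: SE, 2 libraries against 2) after PBS and after IL4; filled points passed at an adjusted p under 0.05. The point of il4r.1 lies at -1.11 after PBS and 0.77 after IL4, that of stat6 at -1.19 and 0.45.

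Levels of different genes are set side by side per kilobase of merged exon. The cDNA was poly-dT-primed and amplified, so reads need not scale with that length, and the orders below depend on it. In PBS GFP-positive cells the order was socs3b (95.7 ± 0.27 CPM per kilobase, SD, n = 2), il13ra1 (24.3 ± 1.5), socs1a (10.5 ± 0.34), jak1 (10.3 ± 1.2), il4r.1 (3.09 ± 0.25) and stat6 (2.04 ± 0.30). The libraries of socs1a and jak1 overlap in that order. The last 4, jak3 (0.231 ± 0.057), il13ra2 (0.225 ± 0.021), il2rga (0.199 ± 0.11) and il2rgb (0.156 ± 0.16), overlap each with the next. In IL4 GFP-positive cells socs3b (125.8 ± 2.5), il13ra1 (31.3 ± 0.11), jak1 (17.4 ± 0.045), socs1a (8.10 ± 1.9), il4r.1 (3.42 ± 0.12) and stat6 (2.94 ± 0.39) followed each other without overlap. Next came il2rgb (0.190 ± 0.0015), then il2rga (0.048 ± 0.068), il13ra2 (0.038 ± 0.053) and jak3 (0.031 ± 0.0086), which overlap.

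In PBS GFP-negative cells the order was socs3b (29.6 ± 0.61 CPM per kilobase), il13ra1 (21.7 ± 2.0), jak1 (18.1 ± 0.088), il4r.1 (6.67 ± 0.21), socs1a (5.22 ± 0.31), stat6 (4.64 ± 0.38), il2rga (2.78 ± 0.24), il2rgb (2.13 ± 0.38), jak3 (1.5 ± 0.24) and il13ra2 (1.27 ± 0.13). There jak3 and il13ra2 alone overlap. In IL4 GFP-negative cells jak1 (17.6 ± 0.72) and socs3b (17.2 ± 0.60) overlap at the top, followed by il13ra1 (9.68 ± 0.68) and socs1a (5.61 ± 0.091). The genes il2rgb (3.07 ± 1.3), stat6 (2.15 ± 0.14), il2rga (2.13 ± 0.27) and il4r.1 (2.01 ± 0.00051) overlap each with the next. Thus il4r.1 overlaps il2rga there and lies below il2rgb in both libraries. The lowest were jak3 (1.03 ± 0.057) and il13ra2 (0.549 ± 0.22).

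**Figure D4:**
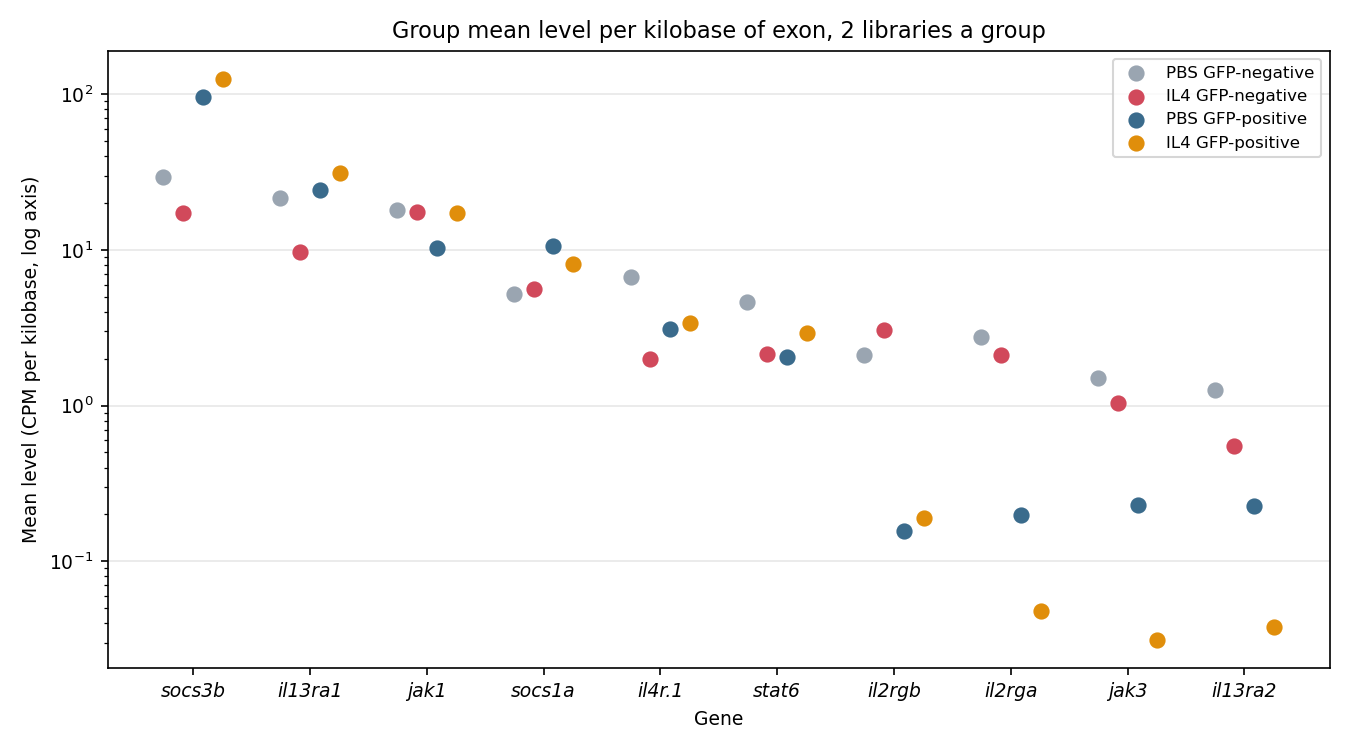
Mean level in CPM per kilobase of exon (vertical axis, log scale) of the 10 genes in the 4 groups, 2 libraries each, ordered by their mean over groups. In GFP-positive cells il2rgb, il2rga, jak3 and il13ra2 lie below 0.24 CPM per kilobase, while the other 6 genes lie above 2.0.

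Ratios within a library do not depend on scaling. Per kilobase, il13ra1 exceeded il4r.1 by 3.10 and 3.39 times in PBS GFP-negative, 5.06 and 4.58 times in IL4 GFP-negative, 8.73 and 7.14 times in PBS GFP-positive and 9.38 and 8.95 times in IL4 GFP-positive libraries. By this measure the type II partner was the higher chain in all 8 libraries, and more so in each GFP-positive library than in any GFP-negative one. The size of the ratio depends on the exon lengths, 2127 bases for il13ra1 and 4793 for il4r.1. Raw counts of il13ra1 were also the higher ones in each library, such as 1120 against 813 in PBS GFP-negative replicate 1. For jak1 over jak3 the ratio was 10.8 to 18.2 in the 4 GFP-negative libraries, 34.7 and 58.2 in PBS GFP-positive and 465 and 688 in IL4 GFP-positive libraries, the last 2 resting on 3 and 2 counts of jak3.

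Markers of several cell types moved with these values, and in bulk fractions fewer cells of a type and less RNA per cell cannot be told apart. In GFP-negative cells 19 of 21 microglia and macrophage markers fell after IL4, and their summed level was 9421 to 9822 CPM after PBS and 3046 to 3097 CPM after IL4, 3.13-fold lower. The apolipoprotein gene apoeb stood at 3835 against 773 CPM, and the class II invariant chain gene cd74a at 2775 against 1092 CPM. Of 16 endothelial markers 15 fell in GFP-negative cells, with a summed level of 291.5 to 305.9 CPM after PBS and 100.5 to 107.4 CPM after IL4, 2.87-fold lower. The adhesion gene pecam1a stood at 44.4 against 8.35 CPM, and SLC2A1 of chromosome 6, a glucose transporter gene, at 35.7 against 22.1 CPM. After PBS this SLC2A1 gene stood higher in GFP-positive cells (57.5 CPM), unlike pecam1a (2.46 CPM), so its level need not be that of endothelium. These falls accompany those of il4r.1 (3.32-fold), il13ra1 (2.24-fold), stat6 (2.15-fold) and socs3b (1.72-fold) in the same libraries, and their part in them was not tested.

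The sum of the lymphocyte and innate lymphoid markers moved less in that fraction. Their 19 genes summed to 222.7 to 230.7 CPM after PBS and 234.1 to 243.6 CPM after IL4. Of 17 tested, 3 were higher and 2 lower, where 24.5% of all genes passed. The members il2rga, il2rgb and jak3 did not pass in this fraction. The 2 most abundant genes held most of that sum and moved in opposite directions. The gene tnfrsf9b stood at 118.6 against 101.7 CPM (-0.22 ± 0.08, adjusted p = 0.0379, edgeR). GATA3 stood at 47.8 against 57.8 CPM (0.27 ± 0.11, adjusted p = 0.0744, edgeR). The sum therefore says little about the other genes of the list. The 6 neutrophil markers summed to 258.4 to 265.8 CPM after PBS and 179.3 to 183.1 CPM after IL4 (3 lower and 1 higher), NCF1 at 128.6 against 53.4 CPM and MMP9 at 56.7 against 40.5 CPM. Neuronal markers summed to 5387 to 5418 and 7443 to 7495 CPM, with 12 of 20 higher, SNAP25 at 1581 against 2105 CPM and ELAVL3 at 589.9 against 935 CPM. Oligodendrocyte markers summed to 14730 to 14970 and 19340 to 19490 CPM, with 4 higher and 2 lower of 10, the myelin gene mbpa at 5607 against 6379 CPM. Radial glial markers in this fraction summed to 2748 to 2770 and 2805 to 2826 CPM, with 4 higher and 8 lower of 15. FABP7 stood at 457.9 against 338.2 CPM and GLUL at 1585 against 1891 CPM, so that sum hides moves in opposite directions.

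In GFP-positive cells 17 of 21 microglia and macrophage markers fell, from 1079 to 1088 CPM after PBS to 475.7 to 481.0 CPM after IL4, 2.27-fold lower, beside the falls of jak3 and il13ra2. Lymphocyte markers were low there and summed to 13.5 to 14.7 CPM after PBS and 18.4 to 21.1 CPM after IL4. Of 17 tested, 4 were higher and 1 was lower, and 2 to 6 of the 19 had no count in a given library. Neutrophil markers summed to 9.92 to 12.9 and 10.6 to 11.96 CPM. Endothelial markers summed to 91.4 to 93.3 and 89.6 to 92.0 CPM, of which SLC2A1 gave 57.5 and 61.5 CPM and pecam1a 2.46 and 0.357 CPM. Most of that sum is SLC2A1, so it says little about the other genes of the list. Of the 16 genes 1 was higher and 2 were lower, with a median of -0.44, where 28.7% of all genes passed. Radial glial markers fell in 12 of 15 cases, from 50910 to 52000 CPM to 38790 to 38910 CPM, FABP7 from 21860 to 14850 CPM and GLUL from 13040 to 11320 CPM. Neuronal markers rose in 11 of 20 cases, from 830.5 to 866.9 CPM to 1277 to 1292 CPM, and oligodendrocyte markers were at 2012 to 2086 and 1756 to 1773 CPM, with 6 lower and 2 higher of 10. The part of these shifts in the values of jak1, jak3, stat6, il13ra1, il13ra2 and socs3b was not tested.

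**Figure D5:**
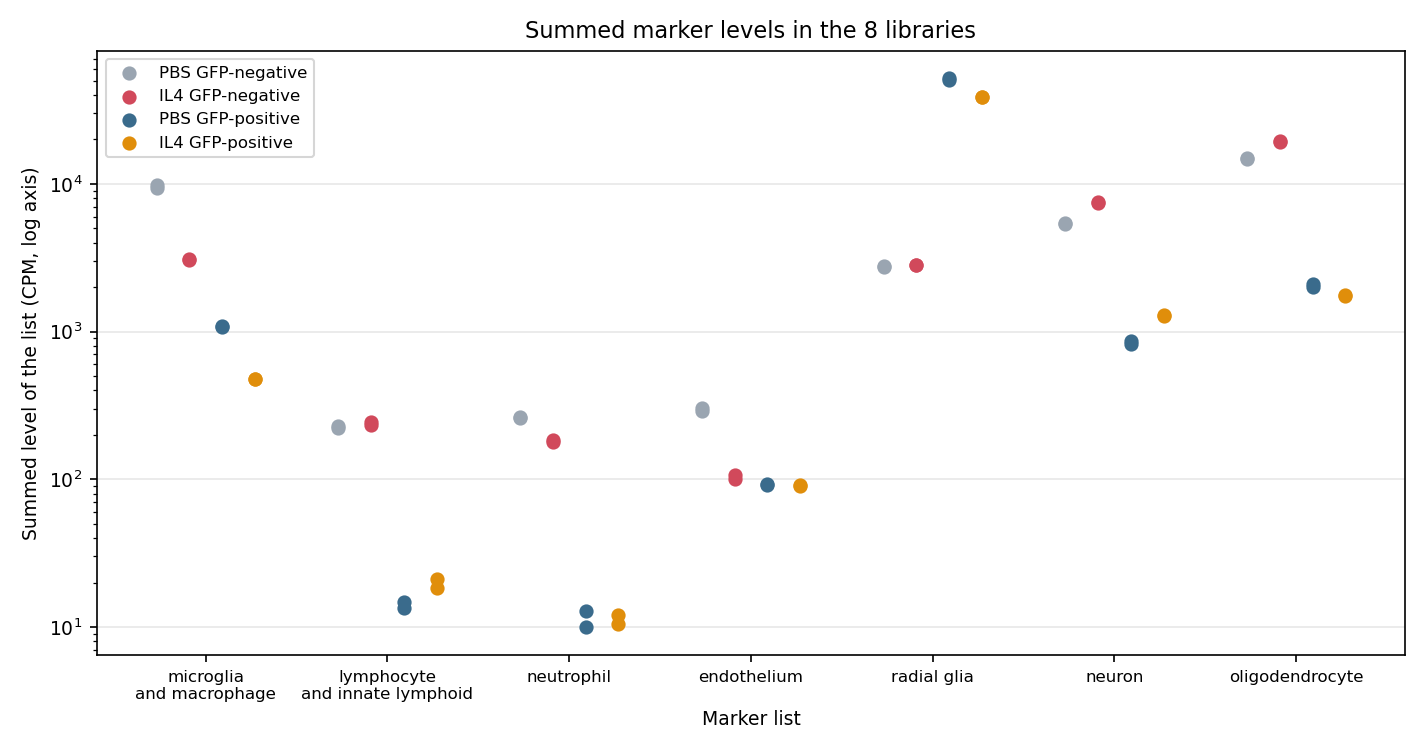
Summed level in CPM (vertical axis, log scale) of 7 lists of cell-type markers in each of the 8 libraries, coloured by group. Microglial and endothelial sums in GFP-negative cells are 3.13-fold and 2.87-fold lower after IL4. The lymphocyte sum, mostly that of tnfrsf9b and GATA3, is 1.05-fold of its PBS value.

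Other parts of the pathway were read from lists of its ligands, receptors, kinases, regulators, adaptors and targets. Of all genes tested, 28.7% passed in GFP-positive and 24.5% in GFP-negative cells, the background for the counts of each list. The list of 7 cytokine genes held il4, il13 and the common gamma chain ligands il7, il15, il15l and il21, and also il34, a ligand of the CSF1 receptor and not of this family. Of the 7, il13 fell in both fractions and was the only one to pass in GFP-positive cells. It stood at 17.5 and 17.4 CPM in PBS GFP-negative and 11.5 and 9.54 CPM in IL4 GFP-negative libraries, a fall of 0.73 ± 0.20 (adjusted p = 0.00999). In GFP-positive libraries it had 43 and 30 counts after PBS and 9 and 3 after IL4, a fall of 2.41 ± 0.43 (adjusted p = 0.00023, edgeR). The value was -3.43 without IL4 GFP-positive replicate 1 and -1.90 without replicate 2. In GFP-negative cells il13 fell and il15l, named after its values were seen, rose from 8.50 and 9.20 to 12.8 and 13.4 CPM (0.56 ± 0.19, adjusted p = 0.0335). The il13 call ended with replicate 1 (-0.72) or 2 (-0.74) of PBS GFP-negative or replicate 2 of IL4 GFP-negative (-0.60) left out, and that of il15l with any of the 4 GFP-negative libraries left out. The transcript of il4 itself stood at 10.9 and 10.2 CPM in PBS GFP-negative and 7.89 and 8.09 CPM in IL4 GFP-negative libraries, and did not pass. The injected agent was a peptide and is not read by sequencing.

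Of 10 other kinase and STAT genes, 4 rose in GFP-positive cells and 6 did not pass, with a median of 0.12 against 0.01 for all genes. The cytokine-activated STAT3 rose from 43.6 and 42.5 to 74.0 and 75.6 CPM (0.80 ± 0.09, adjusted p = 8.33e-07, edgeR), and its groups do not overlap. In GFP-negative cells 1 of the 10 rose and 1 fell, counts that moved in most alternatives. The number that rose was 0 without either PBS GFP-negative library or IL4 GFP-negative replicate 1, and 2 without any of the 4 GFP-positive libraries. It was also 2 under RLE factors, under library totals, with no low-count filter and in voom, and 3 in a fit of the GFP-negative libraries alone. The number that fell was 0 without any of the 4 GFP-negative libraries, under library totals and in DESeq2, and 2 in voom and in a fit of the GFP-negative libraries alone.

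Of 29 tested genes for other cytokine receptor chains, 3 rose and 6 fell in GFP-positive cells, and 2 rose and 11 fell in GFP-negative cells (medians -0.22 and -0.34). The number that rose in GFP-negative cells was 0 without replicate 2 and 1 without replicate 1 of either GFP-negative group, 1 in DESeq2 and 4 in a fit of the GFP-negative libraries alone. The shared chain of the IL6 family, il6st, rose in GFP-positive cells from 56.8 and 60.0 to 95.5 and 93.4 CPM (0.69 ± 0.08, adjusted p = 9.31e-07, edgeR). The interferon gamma receptor gene ifngr1 rose from 4 and 1 to 27 and 19 counts (3.32 ± 0.66, with 4.40 without PBS GFP-positive replicate 1 and 2.69 without replicate 2). The IL11 receptor gene il11ra passed there at 0.61 ± 0.23 (adjusted p = 0.0478) and in no fit without 1 library (0.40 to 0.74). The growth hormone receptor gene ghrb fell by 1.16 ± 0.18, the IL10 receptor gene il10ra by 0.83 ± 0.19 and the IL21 receptor gene il21r.1 by 0.68 ± 0.21, the last not without IL4 GFP-positive replicate 2 (-0.52). In GFP-negative cells il10ra fell from 134.7 and 125.9 to 40.3 and 36.2 CPM (-1.77 ± 0.11, adjusted p = 1.4e-10). There csf2rb, a shared chain of myeloid cytokine receptors, fell by 1.35 ± 0.17, the granulocyte factor receptor gene CSF3R by 2.40 ± 0.41, il11ra by 1.19 ± 0.23, il21r.1 by 0.86 ± 0.12 and ghra by 0.73 ± 0.16. The receptor gene il4r.2 was not matched by name and was not analysed here.

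Of 24 tested genes for other SOCS proteins and negative regulators, 4 rose and 3 fell in GFP-positive cells, and 3 rose and 3 fell in GFP-negative cells (medians 0.08 and -0.03), shares near those of all genes. The number that fell in GFP-negative cells was 5 in voom and 6 in a fit of the GFP-negative libraries alone. The paralogue socs1b had 3 counts over the PBS GFP-positive group and 20 after IL4, with the ratio at 7.5 and its counting interval from 2.23 to 39.4. The fitted rise of 2.82 (adjusted p = 0.0285, edgeR) was 6.60 without PBS GFP-positive replicate 1 and did not pass without replicate 2 (1.90), nor with replicate 1 (2.63) or 2 (2.90) of IL4 GFP-positive left out. The fall of socs9 (-1.39 ± 0.42) did not pass with replicate 1 of PBS GFP-positive (-0.43) or of IL4 GFP-positive (-1.26) left out, and stood at -2.02 with replicate 2 of the former left out. The blood-cell phosphatase gene PTPN6 fell in both fractions, by 0.78 ± 0.20 in GFP-positive cells and 0.77 ± 0.11 in GFP-negative cells, the former not without PBS GFP-positive replicate 1 (-0.32). In GFP-negative cells PIAS1 of chromosome 7 rose by 0.84 ± 0.18. The number of this list that rose in GFP-positive cells was 2 without PBS GFP-positive replicate 2 or without either IL4 GFP-positive replicate, and the number that fell was 1 without PBS GFP-positive replicate 1.

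Of 16 genes for adaptors of the receptor, 6 rose and 1 fell in GFP-positive cells, and 4 rose and 1 fell in GFP-negative cells (medians 0.20 and 0.09). The regulatory subunit gene of phosphoinositide 3-kinase pik3r2 rose in GFP-positive cells from 71.2 and 71.3 to 121.5 and 116.9 CPM (0.74 ± 0.08, adjusted p = 8.39e-07, edgeR). Another, pik3r3a, fell in GFP-negative cells by 0.62 ± 0.07. The insulin receptor substrate gene irs4a rose there by 0.62 ± 0.19, which did not pass with replicate 1 of PBS GFP-negative (0.43) or either replicate of IL4 GFP-negative (0.55 and 0.69) left out. The number that rose in GFP-positive cells was 3 when PBS GFP-positive replicate 1 or either IL4 GFP-positive library was left out. In GFP-negative cells it was 2 when PBS GFP-negative replicate 1 or either IL4 GFP-negative library was left out.

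Of 27 tested genes known in mammals as STAT6 targets, 5 rose and 6 fell in GFP-positive cells, and 1 rose and 8 fell in GFP-negative cells (medians -0.20 and -0.30, against 0.01 and -0.02 for all genes). The chemokine gene ccl20b had 0 counts in both PBS GFP-positive libraries and 9 and 26 after IL4, 13.1-fold higher against a floor of 3 counts over the group. The chitinase gene chia.1 had 0 counts there after PBS and 4 and 4 after IL4, 3.002-fold higher against the same floor. Its fitted call ended without any of the 4 GFP-positive libraries (5.30 to 5.33). The transcription factor gene GATA3, also on the lymphocyte marker list, rose by 0.67 ± 0.17, not without IL4 GFP-positive replicate 1 (0.46). The factor gene irf4b rose by 1.69 ± 0.51, not with replicate 2 of PBS GFP-positive (1.24) or either replicate of IL4 GFP-positive (1.59 and 1.67) left out. The number that rose in GFP-negative cells was 0 without IL4 GFP-negative replicate 1, and 2 without PBS GFP-negative replicate 2 or any of the 4 GFP-positive libraries, under library totals, in voom or in a fit of the GFP-negative libraries alone.

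The genes of that list that fell include markers of alternatively activated macrophages in mammals. The mannose receptor gene mrc1b fell in GFP-negative cells from 43.1 and 41.0 to 9.45 and 9.85 CPM (-2.12 ± 0.18, adjusted p = 1.98e-08, edgeR), and its relative MRC1 of chromosome 7 by 1.94 ± 0.42, not without PBS GFP-negative replicate 1 (-1.74). The transglutaminase gene tgm2l fell there from 70.8 and 66.9 to 13.4 and 10.3 CPM (-2.54 ± 0.18, adjusted p = 1.11e-09). The sterol hydroxylase gene CH25H fell by 1.66 ± 0.19. The checkpoint gene CD276 fell by 0.78 ± 0.20, not without IL4 GFP-negative replicate 2 (-0.72). The nuclear receptor gene pparg fell by 1.08 ± 0.33, a call that did not hold with any of the 4 GFP-negative libraries left out (-1.23 to -0.95). Of the 7 alternatives other than leaving out a library, 6 kept the call of pparg and 6 that of MRC1 of chromosome 7. In GFP-positive cells tgm2l fell by 1.56 ± 0.34 and mrc1b by 1.49 ± 0.39, at -2.41 and -2.46 without IL4 GFP-positive replicate 1. The tgm2l values without 1 library ran from -2.41 to -1.12. The gene mrc1b lost its call with replicate 2 of PBS GFP-positive (-1.17) or of IL4 GFP-positive (-0.998) left out. Of the 7 other alternatives, 6 kept that mrc1b call. Without IL4 GFP-positive replicate 1 or 2 the number that rose in GFP-positive cells was 2 or 3, and without replicate 2 the number that fell was 3. The number that rose there was also 3 in DESeq2 and 2 in a fit of the GFP-positive libraries alone. In GFP-negative cells 5 fell without PBS GFP-negative replicate 1 or IL4 GFP-negative replicate 2. The microglial marker falls given above, and the endothelial ones in GFP-negative cells, occur in the same libraries. The part of these falls in the values of this list was not tested.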

How the data were processed

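The authors deposited read counts per gene for 8 libraries, as whole numbers with no normalization. Per the submitters' processing notes, featureCounts was the counter and GRCz10 (danRer10) the build, and per the labels' protocols amplified poly-dT-primed cDNA was sequenced single-end, at 75 bases. Aligner, versions, strand setting and the handling of multiply aligned reads are not given in the sources used here. Of the count columns, 0 were left without a sample. Gene length in the deposited table equals merged exon length for 31388 of 31388 genes.

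Differences were tested with edgeR 4.0.16 (R 4.3.3): TMM factors, filterByExpr with a minimum count of 10 (20508 genes kept), quasi-likelihood estimation with robust shrinkage, one mean for each of the 4 groups, all 8 libraries sharing the spread (residual degrees of freedom 4, common dispersion 0.00816), and 5 contrasts, two-sided. The SE is the log2 fold change divided by the square root of F. The script was tested on simulated data. The chi-square per gene between replicates was 2.77 to 4.93, above what counting error gives, so all were kept as separate samples. Fits without 1 library leave a group with a lone sample, which is assumed to vary as the other groups do.

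Ratios at 1 to 3 counts in a group carry exact 95% binomial counting intervals, and 0 counts a floor of 3 counts over the group. The floor takes the counts of the higher group as exact. The intervals cover counting error only, since amplified reads are not independent molecules. Members and lists were chosen with earlier results of these data known. All 10 members are named. Of each pathway list, at most the 6 genes with the smallest adjusted p are named, among those that passed with at least a 1.5-fold change after IL4. Of each marker list, the 2 most abundant genes are named. The genes il4 and il15l were added after their values were seen. Some genes that this rule names are not reported here. Lists were matched by symbol, then without the paralogue letter. Alternatives were RLE factors, library totals, DESeq2 1.42.0, limma 3.58.1 voom, no filter, the replicate number as a block, a fit of the 2 groups alone, and leaving out each library.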

Additional observations from a re-analysis of the deposited data

Results flagged for a closer look

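By the test of the difference itself (edgeR, adjusted over all genes), the IL4 change differed between the fractions for 6 of the 10 genes. Of all genes tested, 18.7% passed this test. The 10 genes were chosen with results of these data known, so the count gives no independent evidence. On the log2 scale, GFP-positive minus GFP-negative, the difference was 1.88 for il4r.1, 1.52 for il13ra1, 0.80 for jak1, 1.64 for stat6, 1.17 for socs3b and -2.31 for jak3. In 3 of them, il13ra1, stat6 and socs3b, the change passed in opposite directions in the fractions, with the stat6 rise in GFP-positive cells the least stable of these calls.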

How the results depend on the processing

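The number of the 10 genes that passed stayed within 1.5 times under all alternatives run. Leaving out 1 library gave 4 to 5 for IL4 in GFP-positive cells, 4 to 5 in GFP-negative cells, 5 to 6 for the difference of the changes, 9 to 10 between fractions after PBS and 7 to 9 after IL4. Of 738 values of the 10 genes under alternatives, 679 kept direction and side of the threshold, 14 newly passed, 39 no longer passed and 6 changed sign. The sign changes were those of il2rgb (for IL4 in GFP-positive cells -0.55 without PBS GFP-positive replicate 1, in a range of -0.55 to 2.08 without 1 library; for the difference of the changes 0.27 in voom and -1.10 to 1.53 without 1 library, above 0 with IL4 GFP-negative replicate 1 or PBS GFP-positive replicate 2 left out), of il13ra1 between fractions after PBS under library totals (-0.32) and of jak1 between fractions after IL4 without IL4 GFP-negative replicate 2 (-0.058 to 0.026 over all libraries left out). None of these passed except that of il13ra1, and the cause was not tested. Replicate numbers were not taken as pairs, since the labels state no pairing and deviations of same-numbered libraries correlated by -0.0106 to 0.00662 across genes. With the replicate block, 5 of the 10 genes passed in GFP-positive cells, il13ra2 being lost, and the other 4 counts were as without it (4, 6, 9 and 9). The fit on 2 groups alone was not possible for the difference of the changes. In GFP-positive cells, counts of 0 to 26 for il13ra2, il2rga, il2rgb and jak3 limit what can be detected.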

Other observations

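For each gene that passed after IL4 and for il4r.1 and stat6, the genes with the most similar profile were found by Pearson correlation of log2 CPM over the 8 libraries. The libraries fall into 4 groups, so these values describe shared group patterns and carry no test. The profile of il4r.1 was nearest to CD2AP (r = 0.985), UTP14C (r = 0.983) and the cyclooxygenase gene PTGS2 (r = 0.978). That of stat6 was nearest to FADS6 (r = 0.982), pfkfb4a (r = 0.973) and syne2a (r = 0.972). That of il13ra1 was nearest to the MAP kinase phosphatase gene DUSP4 (r = 0.993), the AP-1 gene FOSL1 (r = 0.991) and RIN2 (r = 0.990). That of jak1 was nearest to ACSBG2 (r = 0.996), and that of socs3b to the ribosomal protein genes RPLP0 and RPL3 (r = 0.999 each). The profile of jak3 was nearest to glipr2 (r = 0.997), NPY (r = 0.995) and cxcl11.7 (r = 0.995), and that of il13ra2 to SCAMP3 (r = 0.993). Among the 10 genes themselves, il4r.1 and stat6 correlated at 0.883, il2rga and jak3 at 0.958 and il13ra2 and jak3 at 0.952, again over 8 libraries that share the split between fractions.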
